A study of Mus musculus with 2 samples.

Results

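Zic1, Zic2, Zic4 and Zic5 were described in polyA-plus RNA-seq of mouse embryonic hindbrain. The 4 genes were taken by name from the gene tables made with GENCODE M21, and each name matched 1 of 55536 genes. The series holds 1 group of B6NCrl embryos at embryonic day 12.5, both sexes mixed and without a treatment or an engineered allele in the labels. Its 2 biological replicates are pool 1, made of hindbrains from 120 embryos, and pool 2, made from 88, so that differences between single embryos are averaged out. Genes received 31469575 expected counts (estimated reads) in pool 1 and 29261472 in pool 2. The tissue label was checked on a few regional genes, picked with no fixed list: Hoxa2, Hoxb2 and Gbx2, all genes of the hindbrain, were at 35.7 TPM or more in both pools, and the forebrain genes Emx1 and Six3 were at 0.520 TPM or less. TPM, a transcript's read density scaled to a fixed total per library, is a level per length.

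Zic genes encode transcription factors with a block of C2H2 zinc fingers, related to the Gli proteins that end the hedgehog pathway and to fly odd-paired. In the neural tube they are known from the roof plate and dorsal progenitors, in the cerebellum from the granule cell lineage, and outside the neural tissue from the meninges and the somites. They lie in head-to-head pairs: Zic1 with Zic4 and Zic5 with Zic2. Loss of the first pair is known for a small cerebellum, and reduced Zic2 for holoprosencephaly.

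The family resemblance is shown on the second coding exon of Zic1 and Zic2, which codes for part of the zinc finger block and has 164 bases in both. It lies at chr9:91362459-91362622 on the minus strand for Zic1 and at chr14:122478540-122478703 on the plus strand for Zic2 (mm10, GENCODE M21, coding exon). The sequences below run 5′ to 3′ on the strand of the gene, and capitals mark the 23 bases that differ.
Zic1 exon 2: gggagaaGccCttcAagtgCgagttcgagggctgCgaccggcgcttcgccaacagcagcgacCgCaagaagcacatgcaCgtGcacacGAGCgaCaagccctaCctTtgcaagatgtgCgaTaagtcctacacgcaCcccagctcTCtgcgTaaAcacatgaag
Zic2 exon 2: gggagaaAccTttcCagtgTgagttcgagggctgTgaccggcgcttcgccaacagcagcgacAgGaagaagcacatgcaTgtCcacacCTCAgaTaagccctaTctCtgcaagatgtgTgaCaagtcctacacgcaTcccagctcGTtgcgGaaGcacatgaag
The exons were identical at 141 positions (86.0%), and the longest identical stretch was 27 bases. This bears on whether a read can be assigned to 1 family member. No window of 100 bases, the length implied by the effective lengths in the tables, was shared between the annotated transcripts of any 2 of the 4 genes on either strand.

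Zic4 was the most abundant of the 4 genes. Its levels were 41.8 TPM (pool 1) and 42.2 TPM (pool 2), a mean of 42.0 ± 0.318 TPM (SD, n = 2). Zic5 was at 19.4 and 13.9 TPM (16.6 ± 3.85 TPM, SD, n = 2), with the highest spread between the pools among the 4. Zic2 was at 14.2 and 14.02 TPM (14.1 ± 0.134 TPM, SD, n = 2). Zic1 was at 13.9 and 13.0 TPM (13.5 ± 0.615 TPM, SD, n = 2). All 4 reached 1 TPM in both pools, as did 61.8% of all protein-coding genes and 29.0% of all genes. Among the protein-coding genes at 1 TPM or more in both pools, 30.9% had a higher mean than Zic4, and 57.4% (Zic5), 61.8% (Zic2) and 63.2% (Zic1) had a higher mean than the others. The median level of those protein-coding genes was 21.8 TPM, so Zic4 lay above it and the others below.

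The first step in this order was large and the others were small. Zic4 exceeded Zic5 by 1.11 on the log2 scale of TPM in pool 1 and by 1.60 in pool 2 (mean 1.36 ± 0.35, SD, n = 2). Zic5 exceeded Zic2 by 0.45 in pool 1 and differed from it by -0.01 in pool 2 (mean 0.22 ± 0.32, SD, n = 2), so the 2 genes were not told apart. Zic2 exceeded Zic1 by 0.03 and 0.11 (mean 0.07 ± 0.05, SD, n = 2), a step above the SD in a design with 2 values, while their deposited credibility intervals overlapped in both pools (Zic2 12.7 to 14.98 TPM and Zic1 12.8 to 14.8 TPM in pool 1). No test was run, as 2 pools cannot give a two-sided exact sign-flip p below 0.5.

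**Figure D1:**
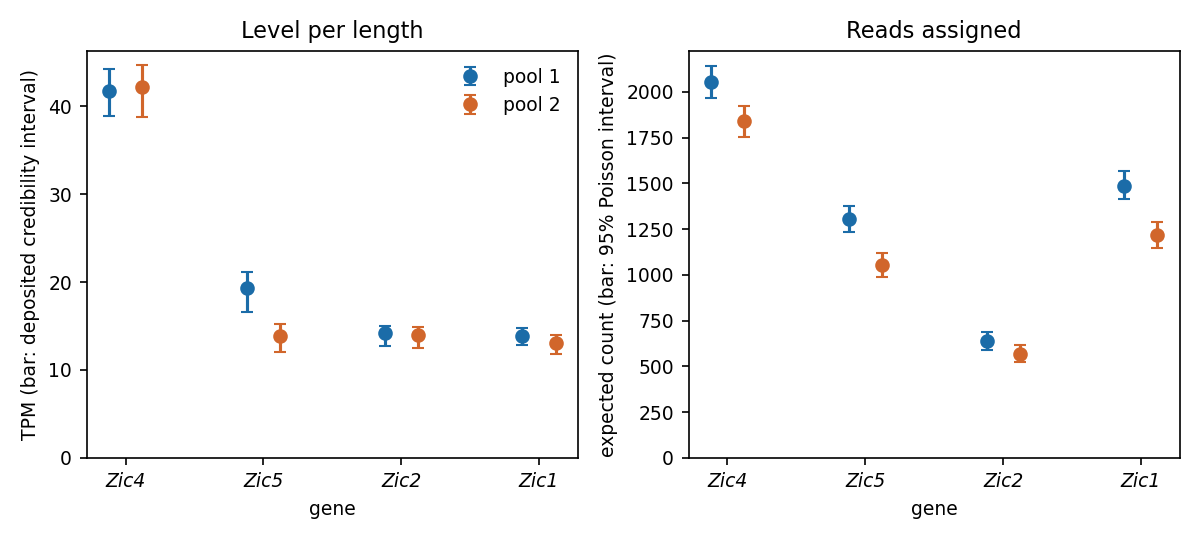
Levels of the 4 Zic genes in pool 1 (blue) and pool 2 (orange). The left panel plots TPM with the deposited credibility interval within each library, the right panel the expected counts with 95% Poisson intervals, and Zic4 is highest in both, while Zic1 moves from last by TPM to the second place by counts.

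Expected counts gave another order, because Zic1 has a long transcript and Zic2 a short one. Zic4 received 2052 counts in pool 1 (95% Poisson interval 1965 to 2143) and 1839 in pool 2 (1756 to 1925). Zic1 received 1487 (1412 to 1565) and 1216 (1149 to 1286), Zic5 1303 (1233 to 1375) and 1052 (989 to 1118), and Zic2 637 (588 to 688) and 568 (522 to 617). These intervals cover counting error only, since no molecular identifiers are mentioned. The deposited posterior SD of the count, a measure of how uncertainly reads were assigned, was 0 for Zic1 and Zic2 in both pools. It was 0.810 and 0.540 counts for Zic5 and 7.58 and 6.58 counts for Zic4.

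Within the chromosome 9 pair, Zic4 stood 3.01-fold above Zic1 per length in pool 1 and 3.24-fold in pool 2 (log2 1.64 ± 0.08, SD, n = 2). By expected counts the same ratio was 1.38-fold and 1.51-fold. Within the chromosome 14 pair, Zic5 stood 1.36-fold above Zic2 in pool 1 and at 0.992-fold in pool 2. By counts it was 2.05-fold and 1.85-fold. Zic4 alone made up 46.8% of the summed TPM of the 4 genes in pool 1 and 50.8% in pool 2.

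Distances between the starts of a pair depended on the transcript. Zic1 (ENSMUSG00000032368.14) spans chr9:91358058-91365810 on the minus strand and Zic4 (ENSMUSG00000036972.14) chr9:91362413-91389348 on the plus strand. These annotated spans overlap by 3398 bases, owing to Zic4-208 (0 TPM in pool 1 and 1.09 TPM in pool 2), which starts inside Zic1, and 60 exonic bases lie on both strands there. From the start of Zic1 it is 2556 bases to the start of Zic4-206, 3159 bases to that of Zic4-204 and 12831 bases to that of Zic4-201, the highest Zic4 transcript. Zic5 (ENSMUSG00000041703.7) spans chr14:122456795-122465677 on the minus strand and Zic2 (ENSMUSG00000061524.8) chr14:122475435-122479852 on the plus strand, with 9757 bases between their starts. All coordinates are those of mm10 with GENCODE M21.

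GENCODE M21 lists 19 transcripts for the 4 genes: 3 of Zic1, 2 of Zic2, 12 of Zic4 and 2 of Zic5. The highest transcript of each gene lay in a narrow range, from 11.0 to 13.4 TPM over both pools. These were Zic1-201 at 12.1 ± 1.53 TPM, Zic2-201 at 13.1 ± 0.389 TPM, Zic4-201 at 12.5 ± 0.354 TPM and Zic5-201 at 12.6 ± 0.834 TPM (SD, n = 2), all annotated as protein coding. The 3-fold excess of Zic4 over Zic1 in TPM thus lay in its other transcripts. This comparison was made after the values were seen. Zic4-211, the largest of the other transcripts, is annotated with a retained intron. Reads from unspliced Zic4 RNA would also fall there, and their part was not tested.

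**Figure D2:**
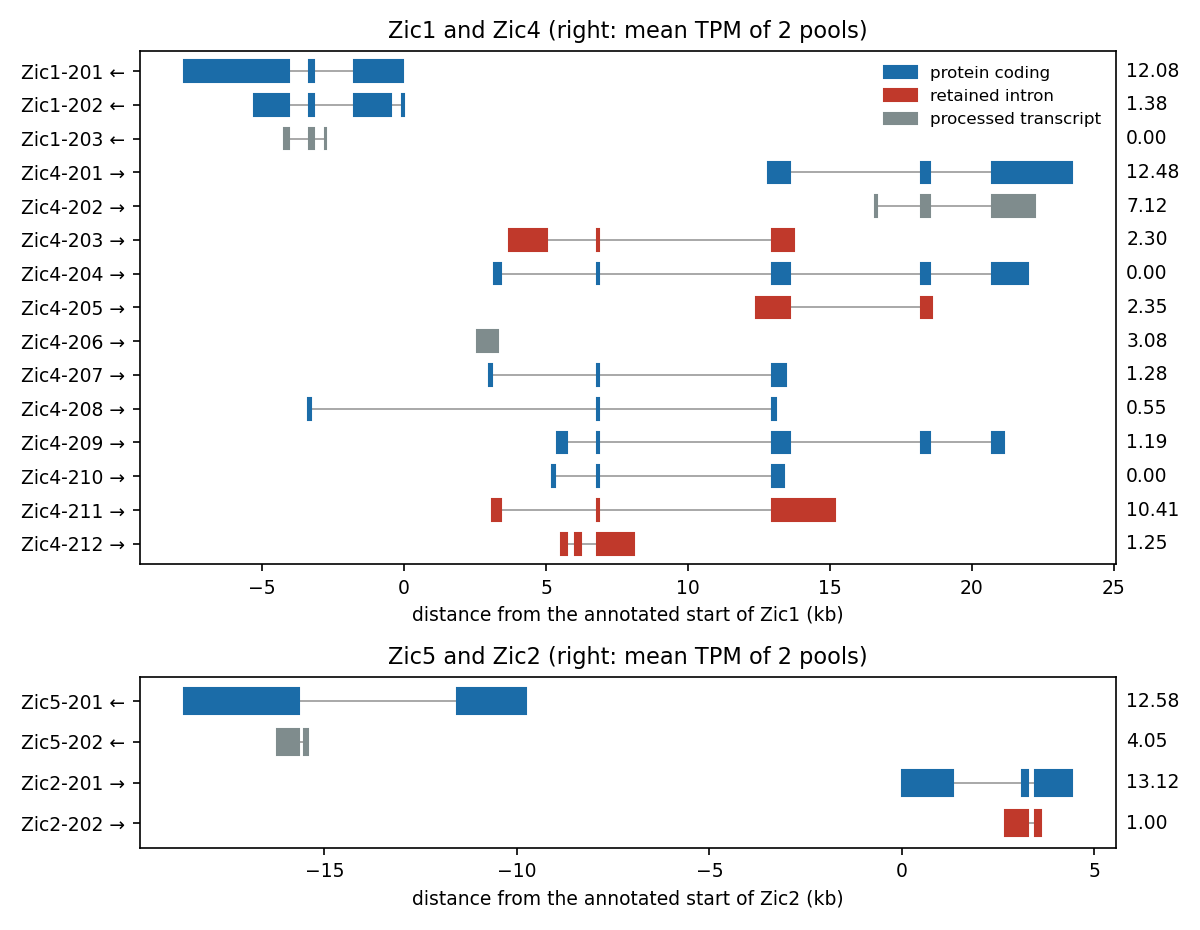
Annotated transcripts of both pairs, with exons as boxes coloured by transcript type, arrows for the strand, and distance in kb from the start of Zic1 (upper panel) or Zic2 (lower panel). The mean TPM on the right shows 1 transcript near 12 to 13 TPM for every gene and 10.4 TPM on the retained-intron transcript Zic4-211.

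Zic4 RNA was spread over many transcripts of 3 annotated types. Zic4-201, a coding transcript that starts inside the gene, held 29.3% of the gene's TPM in pool 1 and 30.1% in pool 2 (29.7% ± 0.612, SD, n = 2). Zic4-211, a retained-intron transcript, held 27.5% and 22.1% (24.8% ± 3.79), and Zic4-202, a non-coding processed transcript, held 16.7% and 17.2% (17.0% ± 0.390). The other 9 transcripts held 7.33% or less each. Only the first exon of Zic4-202 lies outside the exons of Zic4-201, so its share rests on how reads were assigned. Its posterior SD was 35.3 on 250.9 counts in pool 1 and 34.8 on 241.4 counts in pool 2. The credibility intervals were 4.67 to 8.69 TPM and 4.79 to 9.07 TPM, and the SD between the pools does not cover this uncertainty. Summed by type, 6 coding transcripts held 36.9% ± 2.49, 4 retained-intron transcripts 38.8% ± 4.34 and 2 processed transcripts 24.3% ± 1.85 (SD, n = 2). By expected counts the coding transcripts came first, with 47.9% in pool 1 and 51.1% in pool 2, against 38.4% and 33.7% for retained introns and 13.7% and 15.2% for processed transcripts. The 2 transcripts that share the same 1002-base reading frame beginning in the exon upstream, Zic4-204 and Zic4-209, together held 3.26% in pool 1 and 2.39% in pool 2. They end 21.984 and 21.149 kb from the start of Zic1, and Zic4-201 ends at 23.539 kb. Reads beyond their ends could go to Zic4-201 but not to them, whichever 5′ exons the RNA had. These shares therefore do not measure how often each reading frame was used. Zic4-204 was estimated at 0 in both pools, with an upper credibility bound of 1.19 and 0.690 TPM. Zic4-210 was also estimated at 0 in both pools. Of the 6 coding transcripts, Zic4-207, Zic4-208 and Zic4-210 end inside an exon that runs further in Zic4-201. Their ends lie 13.448, 13.106 and 13.38 kb from the start of Zic1, against 13.593 kb for that exon.

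The stretch below is the coding sequence that Zic4-201 has ahead of the exon it shares with Zic4-204, and it is shown because it sets the highest Zic4 transcript apart. It spans chr9:91378694-91378784 on the plus strand (mm10), its first codon is in capitals, and the same bases also lie in the retained-intron transcript Zic4-205, which was at 2.63 and 2.06 TPM in pools 1 and 2.
Zic4-201 coding start: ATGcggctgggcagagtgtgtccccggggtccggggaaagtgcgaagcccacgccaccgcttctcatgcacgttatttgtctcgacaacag
With this start, Zic4-201 has 1023 coding bases.

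By TPM, the difference of Zic5 between the pools lay mainly in a short non-coding transcript, and by counts mainly in the coding one. Zic5-202 was at 6.19 TPM in pool 1 (credibility interval 3.85 to 8.51) and at 1.92 TPM in pool 2 (0.610 to 3.597). These intervals do not overlap, and how often those of all transcripts fail to overlap was not counted. Zic5-202 rested on 74.9 and 21.4 expected counts. Its share of Zic5 TPM was 31.97% and 13.8%, against 5.75% and 2.04% of Zic5 counts. The coding transcript Zic5-201 was at 13.2 and 11.99 TPM in pools 1 and 2, with 1228 and 1031 counts. Since Zic5-202 has 705 bases and Zic5-201 has 4767, the effective length of the gene moved from 3370 to 4108 bases between the pools, which enters the TPM of the gene.
Zic5-202 exon 1: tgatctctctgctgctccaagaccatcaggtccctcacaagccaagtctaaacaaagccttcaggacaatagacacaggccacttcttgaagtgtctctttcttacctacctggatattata
This exon of 122 bases at chr14:122459900-122460021 on the minus strand (mm10) is shown because it is the only part that Zic5-202 does not share with Zic5-201, in whose intron it lies. Reads from unspliced Zic5 RNA would also fall there, and their part was not tested.

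Zic1 and Zic2 each had 1 coding transcript with most of the TPM. Zic1-201 held 94.7% of Zic1 TPM in pool 1 and 84.5% in pool 2 (89.6% ± 7.25, SD, n = 2). Its credibility intervals, 11.9 to 13.4 TPM in pool 1 and 9.75 to 11.4 TPM in pool 2, did not overlap. Zic1-202, which has the same 1341 coding bases but a further intron ahead of them and a shorter 3′ end, held the remaining 5.26% and 15.5%. For this transcript the intervals, 0.109 to 1.76 TPM in pool 1 and 0.896 to 3.21 TPM in pool 2, overlapped. So did those of the whole Zic1 gene, 12.8 to 14.8 TPM in pool 1 and 11.8 to 13.9 TPM in pool 2. As for Zic5-202, the non-overlap of Zic1-201 was not set against a share over all transcripts. Zic1-203, a processed transcript, was estimated at 0 in both pools. Zic2-201 held 94.2% and 91.6% of Zic2 TPM (92.9% ± 1.87, SD, n = 2), and the retained-intron transcript Zic2-202 held 5.77% and 8.42%.

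**Figure D3:**
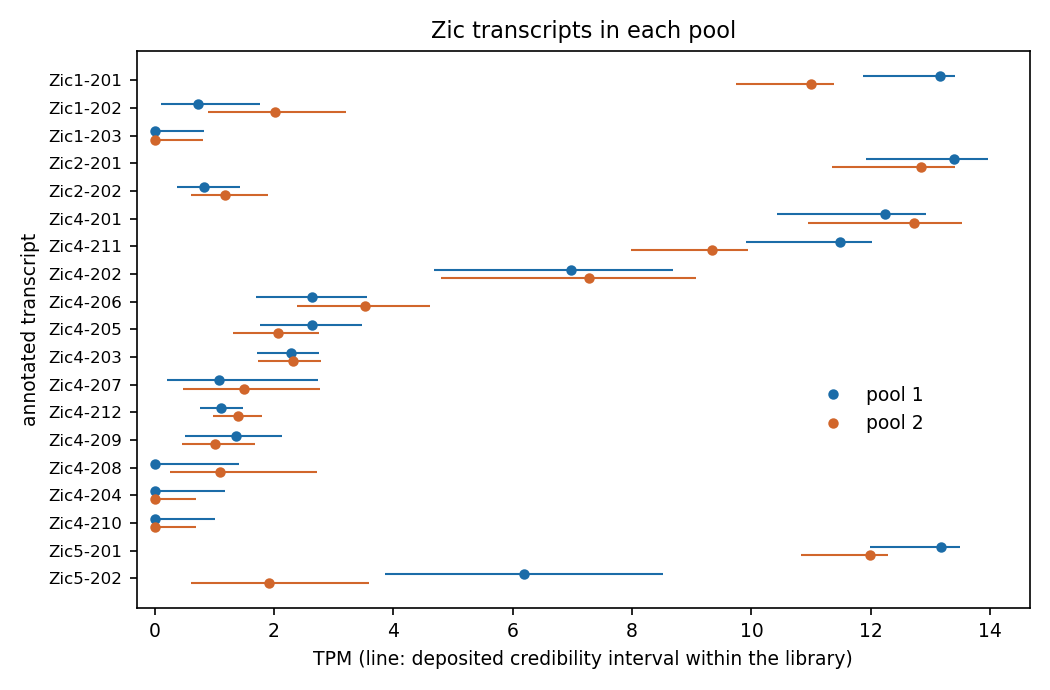
TPM of the 19 annotated Zic transcripts in pool 1 (blue) and pool 2 (orange), with lines for the deposited credibility interval within each library. The intervals of Zic5-202 (6.19 and 1.92 TPM) and of Zic1-201 (13.2 and 11.0 TPM) do not overlap between the pools, while those of Zic4-201 and Zic4-202 overlap closely. The share of all transcripts without overlap was not counted.

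The upstream windows of the chromosome 9 pair are shown because transcripts of both genes start in or near them. RefSeq windows of 300 bases (250 before and 50 after the start, GRCm38.p6) were available for Zic1, at chr9:91365719-91366018 on the minus strand, and for Zic4, at chr9:91368722-91369021 on the plus strand. Zic1-202 starts 42 bases upstream of Zic1-201, and both starts lie in the Zic1 window. Zic4-211 starts in the Zic4 window, at chr9:91368894. Zic4-201, the highest Zic4 transcript, starts outside it, at chr9:91378642. Capitals mark matches to 5 motifs, searched on both strands and none contained in another: the CCAAT box, the TATAAA box, the CACGTG E-box, CAGCAGG as a core of Zic binding motifs and TGGGTGGTC as the Gli consensus.
Zic1 promoter: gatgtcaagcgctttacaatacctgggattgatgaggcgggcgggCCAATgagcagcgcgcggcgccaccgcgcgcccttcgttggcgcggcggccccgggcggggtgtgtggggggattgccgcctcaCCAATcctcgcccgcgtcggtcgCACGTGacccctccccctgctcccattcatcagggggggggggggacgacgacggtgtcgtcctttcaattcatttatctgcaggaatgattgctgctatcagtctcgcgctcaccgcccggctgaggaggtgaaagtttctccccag
Zic4 promoter: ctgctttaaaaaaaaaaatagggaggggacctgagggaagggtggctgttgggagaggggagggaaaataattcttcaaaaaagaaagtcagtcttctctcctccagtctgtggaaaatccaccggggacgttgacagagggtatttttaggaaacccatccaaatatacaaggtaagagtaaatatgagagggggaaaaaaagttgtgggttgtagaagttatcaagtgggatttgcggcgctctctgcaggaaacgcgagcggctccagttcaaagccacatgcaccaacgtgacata
The Zic1 window held the CCAAT box 2 times and the E-box 1 time, and none of these motifs was in the Zic4 window. Over all 32851 RefSeq windows, 37.4% held a CCAAT box, 7.15% the E-box, 13.6% a TATAAA box, 10.5% the Zic core and 0.253% the Gli consensus. The Zic1 window was 65.3% G and C with 31 CpG dinucleotides, against 46.0% and 8 for Zic4 and 62.7% and 15 for Zic5, and the median window had 52.7% and 7. Zic1 thus had the most CpG of the 3 windows, and 9.52% of all windows had more.

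Other annotated genes lie in and beside the pairs at low levels. Gm37477, on the strand opposite to Zic4, was at 5.08 and 6.52 TPM in pools 1 and 2, and 468 of its 884 bases lie within Zic4-211. Its posterior SD, 7.58 counts in pool 1 and 6.58 in pool 2, was the same as that of Zic4. Windows of 100 bases shared with Gm37477 made up 3.55% of Zic4 windows, so reads of Zic4 and Gm37477 on those bases cannot be told apart unless strand was used. The processed pseudogene Gm12241, which lies elsewhere, at chr11:56459349-56460074, shared 1.90% of Zic5 windows and received 1.27 counts in pool 1 and 0 in pool 2. Between Zic5 and Zic2, the non-coding gene 2610035F20Rik starts 235 bases from the start of Zic2 and runs the other way. It was at 3.62 and 2.63 TPM in pools 1 and 2, below Zic2 in both. These 3 genes were named for their position or sequence after the values were seen. Outside the pairs, the nearest genes were A730094K22Rik (1.41 and 0.930 TPM) and Gm29478 (2.89 and 2.40 TPM) around Zic1 and Zic4, and Gm5089 (3.07 and 2.16 TPM) and Gm10837 (0.450 and 0.420 TPM) around Zic5 and Zic2. All 4 were below the Zic genes beside them in both pools.

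No Zic gene differed 2-fold between the pools. After TMM scaling of the counts, the log2 ratio of pool 2 over pool 1 was -0.18 for Zic1, -0.06 for Zic2, -0.05 for Zic4 and -0.20 for Zic5. Among the 14995 genes that averaged at least 50 counts, 150 (1.00%) passed 2-fold in either direction. The median absolute log2 ratio over these genes was 0.10, and 27.4% of them had a larger one than Zic1 and 23.9% a larger one than Zic5. The pools are replicates of 1 group, so this difference is the spread itself and has no test. By TPM the Zic5 ratio was -0.48 and the Zic4 ratio 0.02. Markers of skeletal muscle moved between the pools. All 8 were at 1 TPM or more in both pools, as were 61.8% of protein-coding genes, and none was at 0. Their summed level was 37.9 TPM in pool 1 and 193 TPM in pool 2 (Myl1 8.36 and 40.5 TPM, Acta1 7.58 and 36.4 TPM, Myod1 2.02 and 9.31 TPM). Somites also express Zic1, and the part of such tissue in the Zic values was not tested.

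**Figure D4:**
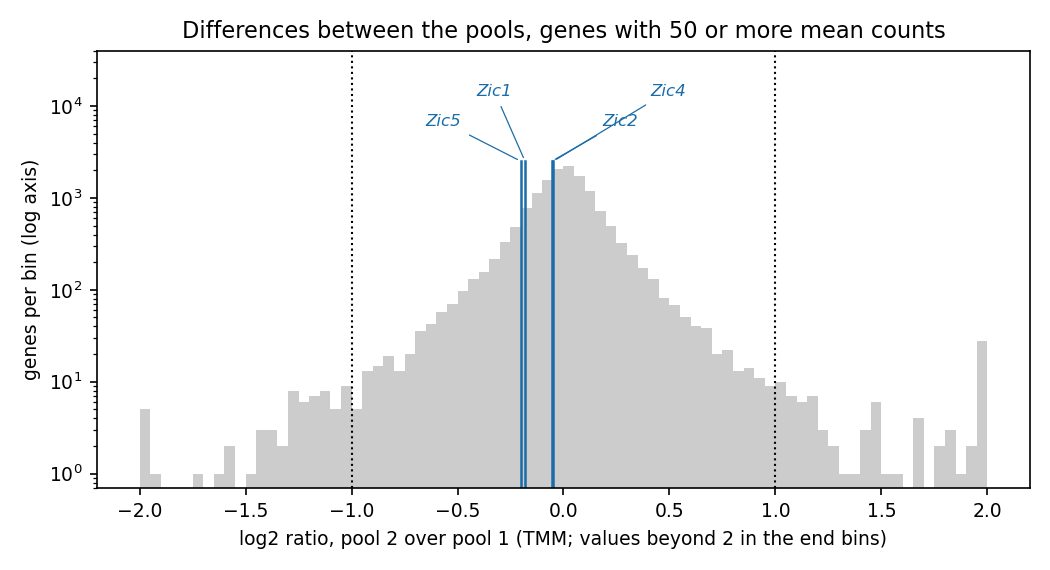
Histogram of log2 ratios of pool 2 over pool 1 for 14995 genes with 50 or more mean counts (grey, log axis), with the 4 Zic genes as blue lines and the 2-fold limits dotted. All 4 lines lie between -0.20 and -0.05, well inside the limits.

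Relatives and partners of the Zic proteins lay below Zic4, and Glis2 and Gli3 lay above the other 3 Zic genes in both pools. All 7 genes of this list had 1 TPM or more in each pool, as did 61.8% of protein-coding genes, and their median was 6.31 TPM. Of the Gli genes, which relay hedgehog signals, Gli3 was at 20.0 and 20.6 TPM in pools 1 and 2, Gli2 at 6.27 and 6.34 TPM and Gli1, the usual readout of the pathway, at 2.84 and 3.70 TPM. Glis2 was at 26.6 and 26.1 TPM, the highest of the list, Glis1 at 4.56 and 6.83 TPM and Glis3 at 2.00 and 2.08 TPM. Mdfi, which encodes I-mfa, a protein known to bind Zic factors, was at 16.2 and 11.5 TPM. By TMM-scaled counts Mdfi had a log2 ratio between the pools of -0.52 and Glis1 one of 0.23. As a ratio of TPM Glis1 moved more than Mdfi, and in TPM units Mdfi moved more (SD 3.28 against 1.61 TPM, n = 2).

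Genes known to be regulated by Zic factors spanned a wide range of levels. In each pool all 5 genes had 1 TPM or more, which 61.8% of protein-coding genes also had, and their median was 13.9 TPM. Apoe, the lipid carrier, was at 177 and 189 TPM, and Ephb1, an axon guidance receptor that Zic2 controls in retinal ganglion cells, at 23.4 and 21.6 TPM. Atoh1, the rhombic lip factor that Zic1 can repress, was at 14.1 and 13.6 TPM. Slc6a4, the serotonin transporter, was at 3.36 and 3.35 TPM and Drd1, a dopamine receptor, at 1.45 and 1.11 TPM. None of the 5 differed 2-fold between the pools, and 1.00% of all tested genes did.

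By mean TPM, Zic1, Zic2 and Zic5 lay among both the dorsal and the ventral genes of the neural tube. For Zic5 the place among ventral genes depended on the pool. In pool 1 Zic5 (19.4 TPM) was above every listed ventral gene, the highest being Nkx6-1 (14.7 TPM). In pool 2 Zic5 (13.9 TPM) was below Nkx6-1 (14.1 TPM) and Dbx1 (23.7 TPM). Zic4 lay among the dorsal genes and above every listed ventral gene. The dorsal neural tube and roof plate list had 11 of 12 genes at 1 TPM or more in each pool (median 12.3 TPM), against 8 of 9 of the ventral list (median 3.64 TPM) and a Zic median of 15.4 TPM. Dorsal examples were the BMP targets Msx1 (74.1 and 90.7 TPM) and Msx2 (46.7 and 50.1 TPM), with Pax7 lowest at 0.850 and 1.2 TPM. Ventral examples were Dbx1 (13.9 and 23.7 TPM) and Nkx6-1 (14.7 and 14.1 TPM), with Nkx2-9 lowest at 0.900 and 0.420 TPM. In the list of the rhombic lip and granule lineage, 8 of 9 reached 1 TPM (median 14.6 TPM), led by Meis1 (134 and 156 TPM) and Lhx2 (24.2 and 23.8 TPM), while En2 was at 0.510 and 0.660 TPM. These medians describe the lists and were not tested against each other. Beside the counts of list genes, 61.8% of all protein-coding genes had 1 TPM or more in both pools.

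Lists of broad cell types had higher medians than the Zic genes, except those of the choroid plexus and of skeletal muscle. For the counts that follow, 61.8% of all protein-coding genes had 1 TPM or more in both pools. All 8 radial glia and progenitor genes (median 132 TPM, led by Fabp7 and Vim, with Sox2 lowest at 29.6 ± 1.40 TPM) and all 8 genes of postmitotic neurons (median 376 TPM, led by Tubb3 and Ina, with Elavl3 lowest at 48.3 ± 0.141 TPM) reached 1 TPM in both pools. The meninges and mesenchyme list, tissue that also expresses Zic genes, reached it with 11 of 11 members (median 42.5 TPM), led by the collagens Col3a1 and Col1a1, with Tbx18 lowest at 3.97 ± 1.16 TPM. Its summed level was 1394 TPM in pool 1 and 1792 TPM in pool 2. A TMM ratio above 0 was found for 9 of its 11 members and for 7705 of all 14995 tested genes. The median ratio of the list was 0.25, which turned to -0.12 with ERCC scaling. ERCC scaling shifted the median of all genes by a like amount, to -0.37, and the part of this tissue in the Zic values was not tested. Choroid plexus genes reached it with 5 of 6 members (median 10.2 TPM, Ttr and Otx2 highest, Kl lowest at 0.240 TPM in both pools), and cranial ganglion and crest genes with 7 of 7 (median 30.8 TPM, Pou4f1 highest at 46.3 ± 7.43 TPM). In bulk tissue, fewer cells that express a gene and less RNA per cell cannot be told apart, and which cells held the Zic RNA was not tested.

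**Figure D5:**
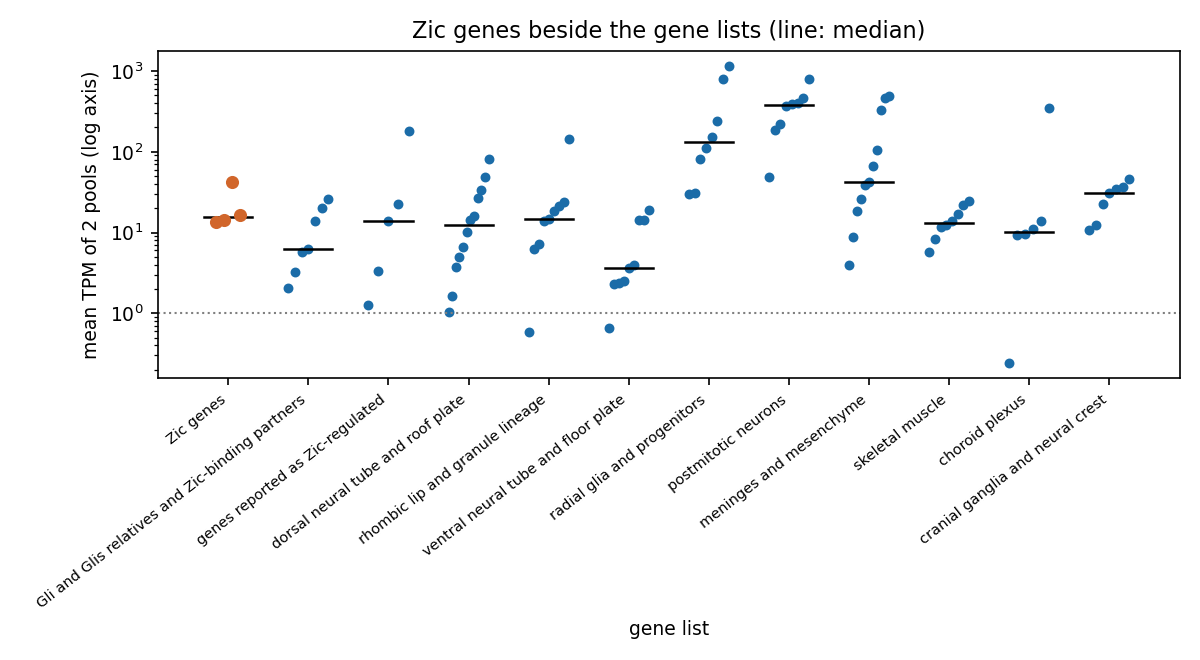
Mean TPM of the 4 Zic genes (orange) and of every member of the 11 gene lists (blue) on a log axis, with the median of each list as a black line and 1 TPM dotted. The Zic median of 15.4 TPM lies near the rhombic lip (14.6 TPM), Zic-regulated (13.9 TPM), muscle (13.2 TPM) and dorsal (12.3 TPM) medians, and below those of radial glia (132 TPM) and neurons (376 TPM).

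The list genes closest to each Zic gene in level were found among 89 genes by the Euclidean distance in log2(TPM + 0.1) over the 2 pools. Closest to Zic1 were Atoh1 (distance 0.06) and Bmp7 (0.14), and closest to Zic2 were Nkx6-1 (0.05) and Bmp7 (0.05). Zic4 was closest to the mesenchymal genes Pdgfra (0.17) and Dcn (0.22), and Zic5 to Foxc2 (0.32) and Mdfi (0.37). With 2 pools, this measure reads the level and says little about a shared pattern.

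The older annotation, GENCODE M4, gave the same picture at a slightly higher scale. On M4, Zic4 was at 44.1 ± 0.389 TPM, Zic5 at 17.5 ± 4.02 TPM, Zic2 at 14.9 ± 0.141 TPM and Zic1 at 14.1 ± 0.658 TPM (SD, n = 2). M21 values were 0.950 to 0.953 times the M4 values for the 4 genes, and the median over 15185 genes at 1 TPM or more was 0.952. The order of the 4 genes was the same with both annotations.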

How the data were processed

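The tables of both hindbrain libraries were used as deposited. Extraction used mirVana, per the labels' protocols, and 10 ng of oligo-dT-primed material was tagmented with ERCC spike-ins present, per the labels. Such small inputs can favour some fragments over others, which was not tested. Reads had been quantified on mm10 with GENCODE M21 and M4, per the read-me files. Neither the program nor the use of strand is stated there. The authors' expected counts, as deposited, are fractional where reads fit several entries. TPM values were deposited on a scale that covers all entries, spike-ins included, and FPKM values were deposited per kilobase of effective length. The isoform values in percent, as deposited, give a transcript's part of its gene. Shares here were computed from transcript TPM. Credibility intervals and posterior SDs were deposited too, describe assignment within 1 library, and come without a stated level.

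Expected counts were rounded to whole numbers and scaled with TMM (edgeR 4.0.16, R 4.3.3, prior count 0.5) over all genes, with DESeq2 1.42.0 size factors, total counts and ERCC totals as alternatives. This step was tested on simulated data. Means and SDs are over the 2 pools; Poisson intervals are at 95%. Tables were handled in Python 3.11.15 (numpy 2.4.6 and pandas 2.3.3), intervals came from scipy 1.17.1 and plots from matplotlib 3.10.9. All 4 Zic genes are named, as are transcripts with a mean share of 10% or more, all relatives and regulated genes, and of every other list the 2 highest members and the lowest one; further transcripts and neighbours are named outside this rule. Of the cranial ganglion list, 2 genes that the rule would name are not reported here. The members and lists were chosen with earlier results of these data known. Promoter sequences are from RefSeq (GRCm38.p6), with 3 of the 4 genes matched.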

Additional observations from a re-analysis of the deposited data

How the results depend on the processing

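With M4, mean levels moved by more than the spread between the pools for Zic1 (14.1 TPM), Zic2 (14.9 TPM) and Zic4 (44.1 TPM). With TPM rescaled to genes alone they moved to 14.8 TPM for Zic1, 15.5 TPM for Zic2 and 46.2 TPM for Zic4. Scaling to ERCC totals gave log2 ratios between the pools of -0.56 for Zic1, -0.43 for Zic2, -0.43 for Zic4 and -0.58 for Zic5, and moved the median of all genes to -0.37. Among the same 14995 genes, the number past the limit between the pools went from 150 to 515 with a 1.5-fold limit and 250 with ERCC totals. With 10 or more mean counts it was 783, and with 1 or more 4536. These 2 numbers come from larger sets of genes, whose sizes were not recorded, so they are not shares of the 14995. With expected counts in place of TPM, the log2 ratio of Zic4 over Zic1 was 0.53 and that of Zic5 over Zic2 0.96, and the shares were 97.9% for Zic2-201, 46.7% for Zic4-201, 96.1% for Zic5-201, 3.89% for Zic5-202 and 12.7% for Zic4-202. At a limit of 5 TPM, 4 of 7 relatives and partners, 3 of 5 regulated genes, 3 of 9 ventral and 3 of 8 muscle genes passed. So did 11001 of 22028 protein-coding genes and 11728 of all 55536 genes. DESeq2 size factors, total counts, a prior count of 2 and FPKM changed none of the results they were run on beyond the spread or counting interval.

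Leaving out a pool gave 13.0 to 13.9 TPM for Zic1, 14.02 to 14.2 for Zic2, 41.8 to 42.2 for Zic4 and 13.9 to 19.4 for Zic5, and -0.01 to 0.45 for the log2 difference of Zic5 over Zic2, whose direction rests on pool 1. No paired analysis was possible because the series has 1 group. Counts of 21.4 to 74.9 limit the estimate for Zic5-202.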
